A study of Mus musculus with 2 samples.

Results

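Tdg encodes thymine DNA glycosylase, and its transcript was followed here together with those of 9 genes that work before, beside or after it: Tet1, Tet2, Tet3, Mbd4, Ung, Smug1, Apex1, Polb and Xrcc1. The 10 genes were chosen by symbol, for their role in removing modified or mispaired bases from DNA, out of 32285 features listed in the count tables. The tables hold raw UMI counts (unique molecular identifiers, each standing for 1 captured RNA molecule) of RNA 3′ ends in single cells. Each of 2 libraries was made from live CD45-positive immune cells of mouse allograft tumours. One library, Tdg_WT, carries the genotype label WT and KP in its title, and the other, Tdg_KO, carries the genotype label Tdg KO and KPT in its title. The series design text calls the tumours subcutaneous KP tumours, and both libraries came from day 14 after inoculation, with the same Percoll enrichment and sort. The labels do not say whether the tumour cells, the host or both carry the genotype, how many animals were pooled, or how Tdg was inactivated. Each group is 1 library, so no test across libraries was possible, and every interval given here is a 95% interval for counting error only.

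Cytosine methylation at CpG sites is removed actively by 2 kinds of enzyme working in turn. TET dioxygenases oxidise 5-methylcytosine to 5-hydroxymethylcytosine, 5-formylcytosine and 5-carboxylcytosine. TDG then cuts out the last 2 of these bases, as it also does thymine or uracil paired with guanine, and base excision repair fills the gap with an unmodified cytosine. In blood cells TET2 is the best-known of the TET enzymes, because loss-of-function mutations of its gene drive clonal growth of myeloid cells.

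The CpG dinucleotides just before the start sites of Tdg and Tet2 are shown because CpG is the sequence these enzymes act on, with each CG in capitals. Both stretches were read from RefSeq promoter sequences of build GRCm38.p6, on the strand of the gene, 5′ to 3′. The Tdg stretch, chr10:82629588-82629827 on the plus strand, covers 240 bases with 18 CpG and ends where the GENCODE M21 annotation starts the gene. The Tet2 stretch, chr3:133544391-133544640 on the minus strand, covers 250 bases with 51 CpG and lies inside the annotated Tet2 gene. Its place relative to exons and introns was not checked. Tet2 itself spans 133463679 to 133545139 on chromosome 3.
Tdg: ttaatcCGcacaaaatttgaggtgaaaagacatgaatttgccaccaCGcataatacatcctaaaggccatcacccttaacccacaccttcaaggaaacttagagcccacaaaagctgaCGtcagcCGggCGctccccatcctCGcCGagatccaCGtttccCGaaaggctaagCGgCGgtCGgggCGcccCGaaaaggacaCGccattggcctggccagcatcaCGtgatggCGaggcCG
Tet2: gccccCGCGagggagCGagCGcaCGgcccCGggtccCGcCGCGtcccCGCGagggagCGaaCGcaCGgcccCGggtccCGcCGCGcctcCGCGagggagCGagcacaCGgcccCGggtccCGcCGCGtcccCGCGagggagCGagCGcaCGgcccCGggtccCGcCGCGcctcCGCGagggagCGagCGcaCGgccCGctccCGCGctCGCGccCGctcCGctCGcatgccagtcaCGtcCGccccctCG
In the 250 bases before the RefSeq start, Tdg held 19 CpG, and 19.7% of 32851 promoters held as many. Tet2, with 51 CpG, was far richer, since 0.0670% of promoters held as many, and Apex1, with 28, came next among the members, at 7.61%. Entries were found for 9 of the 10 members, and the median over all promoters was 6.0 CpG. The search covered 4 short motifs on both strands, none of which contains another. The E-box CACGTG was found before Tdg and Apex1, and in 6.02% of all promoters. The GC box GGGCGG was found in 6 of 9 members (Tet1, Tet2, Tet3, Mbd4, Ung and Apex1) against 32.7% of all promoters, and CCAAT in 6 of 9 (Tdg, Tet3, Mbd4, Smug1, Apex1 and Xrcc1) against 33.8%. The ETS core CCGGAAG was found before 0 of the 9, against 6.91% of all promoters. These matches describe letters in a window and not sites in use.

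The libraries held 5604 and 5896 barcodes (Tdg_WT and Tdg_KO, the order used for every pair of values) with 39819010 and 52586319 UMIs, and 8 cell barcodes occurred in both. After filtering, 5504 and 5693 cells were kept with median depths of 5378 and 6419 UMIs. Clustering without the 10 members gave 37 clusters, of which 27 were named from marker genes, in 17 classes written as cell-like. Named clusters held 83.2% and 73.4% of kept cells, and 7.67% and 14.0% of barcodes carried markers of 2 lineages. Of the 17 classes, 14 had at least 50 cells in each library and are described by level, and 10 had at least 100 and are compared. In the class names DC is a dendritic cell, cDC1 and cDC2 are its conventional types that mainly prime CD8 and CD4 T cells, ILC2 is a lymphoid cell without antigen receptor that makes type 2 cytokines, and Treg is a regulatory T cell. Markers of cells that the sort should remove differed between the libraries: summed over 5 erythroid genes the level was 869 and 29.5 CPM, over 8 epithelial genes 108 and 161, over 5 platelet genes 70.7 and 30.6, over 6 endothelial genes 33.1 and 41.2, and over 6 fibroblast genes 0.883 and 4.47. Of these genes, Pf4 in the platelet list was also among the leading genes of macrophage-like clusters. Epcam in the epithelial list was among those of a cDC2-like cluster. The sums therefore do not count only cells that the sort should remove, and the part of such cells in the values below was not tested. The neutrophil transcript S100a9 was found in 8.85% and 3.42% of NK-like cells against 82.7% and 80.5% of neutrophil-like cells, which gives the share of cells with a UMI where the gene should be absent.

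Tdg, the targeted gene, was found in both libraries. It had 993 UMIs among kept cells of Tdg_WT and 1385 in Tdg_KO, or 25.1 CPM (UMIs per 1000000 UMIs of the same cells; interval 23.5 to 26.7) and 26.5 CPM (25.1 to 27.9). The ratio Tdg_KO over Tdg_WT was 1.06 (0.974 to 1.15), and 0.987 when the libraries were scaled by the median of ratios over all genes. Over all genes with at least 50 UMIs the median log2 ratio was 0.10, and that of Tdg was 0.08. A count of 3′ ends does not show whether an exon elsewhere in the transcript was deleted, so it checks neither the label nor the protein. Tdg lies on GRCm38 chromosome 10, from 82629828 to 82650799 on the plus strand (GENCODE M21). Glt8d2 overlaps it on the other strand with 10 and 13 UMIs, and the 2 processed Tdg pseudogenes in the annotation are not among the listed features.

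Few barcodes fell in the cluster named from epithelial marker genes. The tumour- or epithelial-like cluster, led by Clu, Krt8, Krt18 and Krt19, held 19 and 21 barcodes with 7 Tdg UMIs in each library, or 26.7 and 13.1 CPM. In Tdg_WT 71.4% of these Tdg UMIs came from 1 barcode, and in Tdg_KO 42.9%, at median depths of 1783 and 5804 UMIs. The ratio was 0.493 with an interval from 0.148 to 1.65, which does not cover such clumping in 1 barcode. A difference in Tdg in these cells was therefore not detectable at this depth.

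Tdg was found in all 14 immune classes in both libraries. By the mean of both libraries it was highest in Treg-like cells (regulatory T cells, which restrain other T cells), at 29.9 CPM (24.0 to 36.7) and 40.1 CPM (33.8 to 47.2), and lowest in macrophage-like cells, at 10.3 (4.93 to 18.9) and 11.7 (6.04 to 20.4). Between these means came ILC2-like cells (35.4 and 33.9 CPM), gamma-delta T-like cells (34.2 and 24.8), CD8 T-like cells (23.0 and 32.0), B-like cells (27.0 and 25.9) and naive T-like cells (26.0 and 25.1). Next came cDC1-like cells (39.5 and 10.7), CD4 T-like cells (23.8 and 25.7), migratory DC-like cells (23.5 and 18.6), NK-like cells (21.2 and 20.7), neutrophil-like cells (24.2 and 15.7), cDC2-like cells (18.2 and 18.0) and monocyte-like cells (13.8 and 14.9).

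In that order of mean levels, both libraries of a class lay above both libraries of the next class at 3 of 13 steps: after the CD4 T-like, the cDC2-like and the monocyte-like cells. The other 10 neighbouring pairs overlapped. Lymphocyte classes held the 6 highest places by mean, and the monocyte-like and macrophage-like cells the 2 lowest. The order was only partly shared by the libraries, with Pearson r of 0.42 and Spearman rho of 0.38 between the log2(CPM + 10) and CPM values of the 14 classes, as a description. The cDC1-like cells had the highest level of the 14 in Tdg_WT and the lowest in Tdg_KO, with 15 and 8 UMIs in 53 and 77 cells, too few for the comparison.

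**Figure D1:**
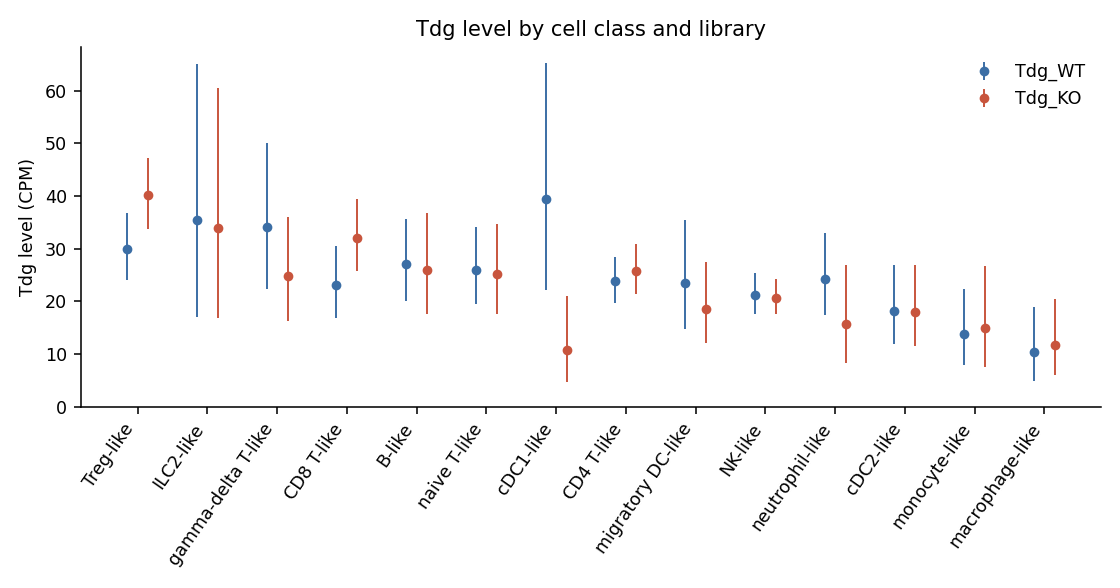
Tdg level in CPM (linear axis from 0) in 14 immune classes, ordered by the mean of both libraries. Each point is 1 library and each line its exact 95% Poisson interval. By mean, Treg-like cells stand highest (29.9 and 40.1 CPM) and macrophage-like cells lowest (10.3 and 11.7), and the cDC1-like cells are high in Tdg_WT (39.5) and low in Tdg_KO (10.7).

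Only a minority of cells carried a Tdg UMI, 14.6% in Tdg_WT and 18.5% in Tdg_KO. Thinned to 1000 UMIs per cell, which leaves out cells below that depth, the shares were 2.49% of 5229 cells and 2.79% of 5547. In Treg-like cells the thinned shares were 3.40% and 6.01%, and in macrophage-like cells 0.866% and 1.81%. No class is known to lack Tdg, so the macrophage-like share before thinning, 3.29% and 3.78% at median depths of 3600 and 2853 UMIs, is the nearest thing to a background and was not separable from carried-over RNA. The Treg-like shares before thinning were 16.7% and 21.9% at 4982 and 5570 UMIs.

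Some classes joined several clusters. Both clusters of the CD4 T-like class had like Tdg levels, at 22.3 and 26.5 CPM in one and 25.7 and 24.3 in the other. In migratory DC-like cells the deeper cluster, with Ccr7, Il4i1 and Il12b among its leading genes, had 31.2 and 21.3 CPM. The shallower one, led by Fscn1, Gm13546 and Ccl22, had 3.79 and 9.61 CPM from 1 and 3 UMIs, lower in both libraries but with intervals that overlapped. The clusters of the neutrophil-like and macrophage-like classes stood in opposite orders in the libraries. In neutrophil-like cells the cluster with Il1f9 and Slpi among its leading genes had 28.3 CPM (35 UMIs) and 13.4 (10 UMIs), while the one with Retnlg and Stfa2l1, of median depth 944.5 UMIs, had 12 (5 UMIs) and 35.8 (3 UMIs). The macrophage-like class was led in Tdg_WT by the cluster with Arg1 and Spp1 (128 and 68 cells) and in Tdg_KO by the cluster with C1qb and Apoe (115 and 223 cells), with Tdg at 1.94 and 12 CPM in the first and 19.7 and 11.6 in the second, from at most 9 UMIs each.

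The TET genes differed from one another in where they were found. Tet2, the TET enzyme that lacks a DNA-binding CXXC domain of its own, was highest in monocyte-like cells, at 134 CPM (114 to 157; 155 UMIs) and 141 CPM (115 to 171; 104 UMIs). Neutrophil-like cells came next at 111 and 97.9 CPM, and then cDC2-like cells at 75.7 and 69.1. Each of these 3 classes lay above the next in both libraries. The lowest were macrophage-like cells, at 7.20 CPM (2.90 to 14.8; 7 UMIs) and 9.74 (4.67 to 17.9; 10 UMIs), preceded by cDC1-like cells at 10.5 and 18.7. The span from top to bottom was 18.6-fold and 14.5-fold, and the 14 class levels of the libraries ran together with r of 0.95 and rho of 0.85.

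Thus 2 mononuclear phagocyte classes stood at opposite ends for Tet2. The lymphocytes lay between them, from Treg-like (66.0 and 64.8 CPM) and CD8 T-like cells (65.9 and 59.7) through CD4 T-like (54.7 and 53.3), B-like (51.3 and 37.6) and naive T-like cells (40.3 and 41.1) to NK-like cells (37.9 and 40.1). Monocyte-like and neutrophil-like cells also stood above macrophage-like cells at equal depth. At 1000 UMIs per cell, 10.9% and 16.0% of monocyte-like and 10.2% and 11.9% of neutrophil-like cells had a Tet2 UMI, against 0.433% and 1.08% of macrophage-like cells, although neutrophil-like cells were the shallowest class (median 1804 and 2235 UMIs). In migratory DC-like cells the 2 clusters differed for Tet2 as for Tdg, with 66.8 and 71.6 CPM in the deeper one and 7.59 and 22.4 (2 and 7 UMIs) in the other. Markers of 2 lineages were carried by 19.1% and 5.13% of their barcodes, and the part of these in the difference was not tested. The cDC2-like class joined 4 clusters, and the shallowest, led by Ccl17 and Mgl2, had Tet2 at 7.70 and 10.2 CPM (1 and 2 UMIs). The other cDC2-like clusters had 83.2 and 80.0, 70.4 and 85.9, and 114 and 72.1 CPM. The level of the cDC2-like class therefore does not describe its shallowest cluster.

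Tet3, whose full-length form carries a CXXC domain, had its 6 highest means in lymphocyte classes. CD4 T-like cells were highest by mean, at 55.3 CPM in both libraries (48.9 to 62.2 and 48.7 to 62.5), and gamma-delta T-like (52.6 and 49.5), Treg-like (45.9 and 56.1), CD8 T-like (42.5 and 54.3), B-like (52.4 and 40.9) and naive T-like cells (51.0 and 39.7) overlapped one another, with lower means. Neutrophil-like cells had 39.2 and 48.3 CPM. Macrophage-like cells were again lowest by mean, at 8.23 and 8.76 CPM, and overlapped cDC1-like cells at 5.27 and 25.3.

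Tet1, best known from embryonic stem cells and germ cells, was near the limit of detection in these immune cells. It had 42 and 57 UMIs in all kept cells, 1.06 and 1.09 CPM. The highest class by mean was naive T-like, with 3.06 and 2.09 CPM, and 0 of 13 neighbours in the order were apart. In monocyte-like and macrophage-like cells 0 UMIs were found in both libraries, which allows up to 2.59 and 4.07 CPM in the first and 3.09 and 2.92 CPM in the second (3 UMIs of the class total in each library).

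**Figure D2:**
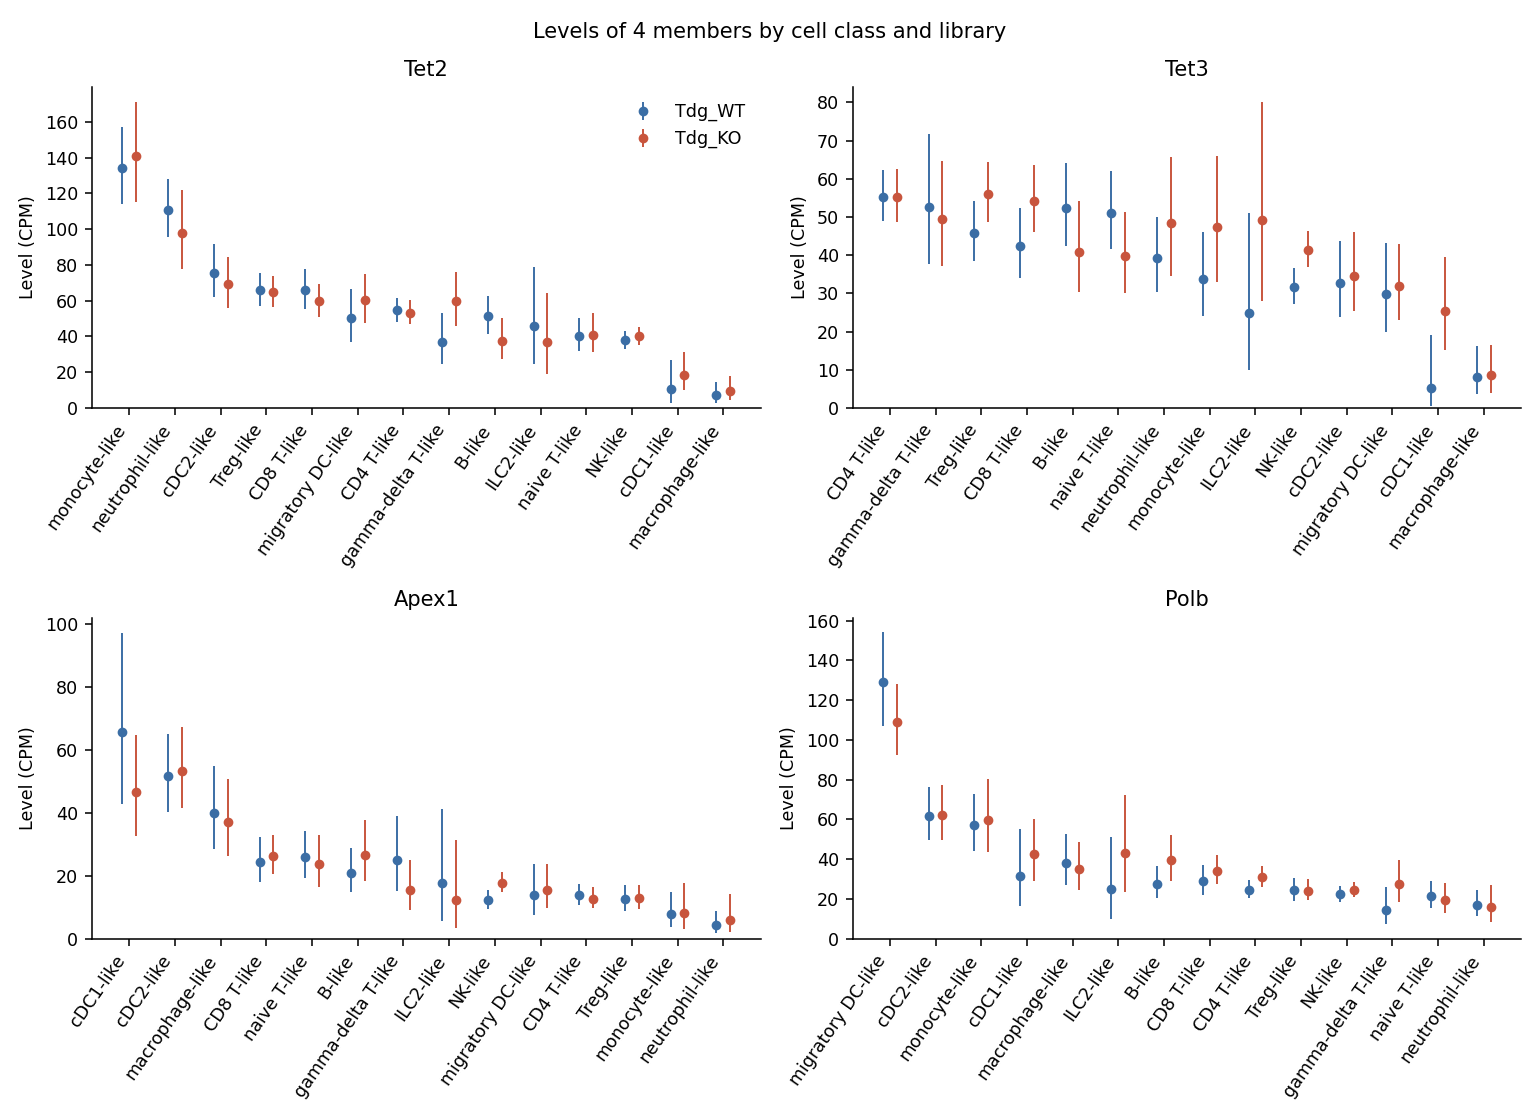
Levels in CPM (linear axes from 0, a different range in each panel) of Tet2, Tet3, Apex1 and Polb in 14 immune classes, each panel ordered by the mean of both libraries. Points are libraries and lines exact 95% Poisson intervals. Monocyte-like cells lead for Tet2 (134 and 141 CPM), cDC1-like and cDC2-like cells for Apex1, and migratory DC-like cells for Polb (129 and 109 CPM).

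The other glycosylases were scarcer in UMIs. Levels of different genes are not compared with each other, since a 3′ count also depends on how each transcript's end is captured. Mbd4 removes thymine or uracil opposite guanine at CpG sites, as TDG does, through a different protein fold. It was highest by mean in B-like cells, at 9.93 CPM (18 UMIs) and 8.36 CPM (10 UMIs), and then cDC1-like (10.5 and 0), naive T-like (6.12 and 4.18) and cDC2-like cells (4.37 and 5.25). No Mbd4 UMI was found in monocyte-like cells in either library, with exact intervals up to 3.19 and 5.01 CPM.

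Ung, the main uracil glycosylase, acts on deaminated cytosines in replicating DNA and in antibody genes of activated B cells. Its level was highest by mean in gamma-delta T-like cells (14.5 and 19.3 CPM), followed by cDC1-like (23.7 and 5.33), naive T-like (12.2 and 11.8), B-like (9.38 and 9.19) and CD8 T-like cells (10.7 and 7.55). Treg-like cells had 1.64 and 2.80 CPM, below naive T-like cells in both libraries. Monocyte-like cells had 0 UMIs in both, with the same upper limits as for Mbd4. Smug1, a second uracil glycosylase that also removes 5-hydroxymethyluracil, was highest by mean in Treg-like cells (5.58 and 5.05 CPM), which overlapped CD8 T-like cells (5.86 and 3.96). In macrophage-like cells it had 0 UMIs in both libraries, with exact intervals up to 3.80 and 3.59 CPM.

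Apex1 encodes the endonuclease that cuts the DNA strand at the site a glycosylase has emptied, and it was highest in the cDC1-like, cDC2-like and macrophage-like classes. The levels were 65.9 CPM (42.7 to 97.3; 25 UMIs) and 46.6 (32.5 to 64.8; 35 UMIs) in cDC1-like cells, 51.7 and 53.3 in cDC2-like cells and 40.1 and 37.0 in macrophage-like cells. Monocyte-like (7.77 and 8.14) and neutrophil-like cells (4.23 and 6.04) were lowest, each below the class before it in both libraries. The lymphocyte classes lay between by mean, among them CD8 T-like (24.4 and 26.3 CPM) and Treg-like cells (12.5 and 12.9), as did migratory DC-like cells (13.9 and 15.6). The libraries ran together over the 14 classes with r of 0.94 and rho of 0.83. Pip4p1 overlaps Apex1 on the other strand with 31.0 and 29.0 CPM, and whether the counting used strand is not stated, so UMIs of the overlapping part cannot be assigned with certainty.

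Monocyte-like and macrophage-like cells lay in opposite orders for Tet2 and Apex1. Monocyte-like cells had the highest Tet2 and, after neutrophil-like cells, the lowest Apex1 in both libraries. Macrophage-like cells had the lowest Tet2 and, after the cDC1-like and cDC2-like classes, the highest Apex1 in both. In both macrophage-like clusters the same held, with Apex1 at 29.1 and 43.8 CPM in the Arg1 and Spp1 cluster and 52.6 and 34.8 in the C1qb and Apoe cluster, and Tet2 between 5.82 and 10.3 CPM.

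Polb encodes DNA polymerase beta, which inserts the missing nucleotide, and was marked by migratory DC-like cells. These had 129 CPM (107 to 154; 121 UMIs) and 109 CPM (92.3 to 128; 147 UMIs), above cDC2-like (61.8 and 62.3) and monocyte-like cells (57.0 and 59.7) in both libraries. Both migratory DC-like clusters shared the high level, at 128 and 97.7 CPM in the deeper and 133 and 147 in the shallower. The neutrophil-like cells were lowest by mean, at 16.9 and 15.7 CPM, and the lymphocyte classes ran from 20.5 CPM by mean in naive T-like to 33.9 in ILC2-like cells. After thinning, 14.6% and 12% of migratory DC-like cells had a Polb UMI, against 2.30% and 1.88% of naive T-like cells.

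Xrcc1, the scaffold protein that holds polymerase beta and ligase III at the break, showed no class order that both libraries shared. Its class means ran from 5.41 CPM in Treg-like to 11.9 in ILC2-like cells, 0 of 13 neighbours were apart, and r between the libraries was -0.33. Most of its class values rest on under 50 UMIs.

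**Figure D3:**
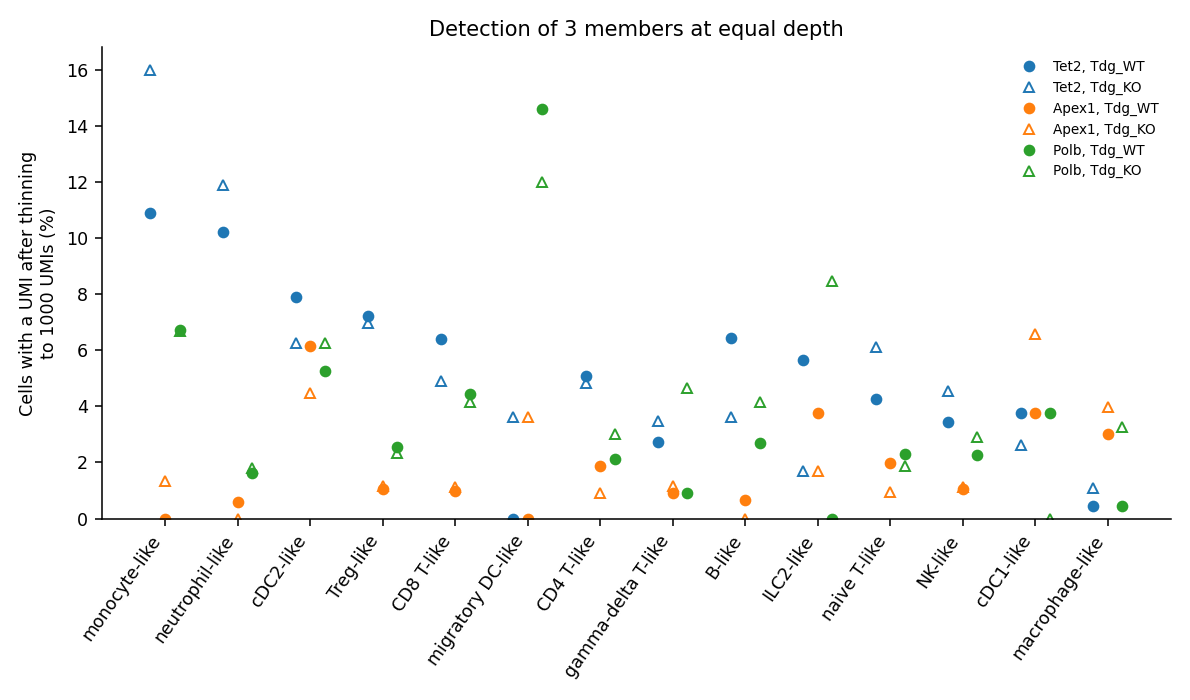
Share of cells with at least 1 UMI of Tet2, Apex1 or Polb after every cell was thinned to 1000 UMIs, in 14 classes ordered by mean Tet2 level. Filled circles are Tdg_WT and open triangles Tdg_KO. Tet2 is highest in monocyte-like (10.9% and 16.0%) and neutrophil-like cells and Polb in migratory DC-like cells (14.6% and 12%).

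Within classes, few members differed by 1.5-fold or more between the library labelled Tdg_KO and the library labelled Tdg_WT. Of 100 pairs of a member and a compared class, 46 had at least 50 UMIs over both libraries, and 3 of these (6.52%) differed by at least 1.5-fold, 1 higher and 2 lower in Tdg_KO. Over all genes, 9.59% of 60171 such pairs differed by as much, so the members' share was not above that of genes at large. The 46 pairs came from 7 members, since Tet1, Mbd4 and Smug1 had too few UMIs in every class. In 5 of the 46 the interval of the ratio left out 1. The share of all gene and class pairs doing so was not computed, so this count has no comparison with genes at large.

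Ung in NK-like cells was the lower pair with an interval that left out 1. The cells had 35 Ung UMIs in Tdg_WT and 21 in Tdg_KO, 6.22 CPM (4.34 to 8.66) and 3.0 CPM (1.85 to 4.58), a ratio of 0.481 (0.266 to 0.850). In NK-like cells 1.48% of all genes were at least 1.5-fold lower. These UMIs were split over the 3 larger NK-like clusters, and Ung was lower in Tdg_KO in each, with intervals that overlapped. It was at 7.05 and 3.29 CPM (17 and 12 UMIs) in the cluster led by Klra4 and Klra8. In the one led by Gzmc it was at 4.34 and 2.68 (10 and 7 UMIs), and in the one led by Gzma and Ccl5 at 9.31 and 2.76 (8 and 2 UMIs). Among NK-like barcodes without markers of 2 lineages or of 2 lymphocyte subsets, cycling cells were more frequent in Tdg_KO (3.32% and 4.96%). In those outside the cycle Ung was at 6.01 and 3.12 CPM (29 and 18 UMIs). After thinning only 5 Ung UMIs were left, with a ratio of 1.27.

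In the same NK-like cells Apex1, Tet3 and Xrcc1 had the highest ratios of the other measured members, all below 1.5-fold. Apex1 had 69 and 124 UMIs, 12.3 and 17.7 CPM, a ratio of 1.44 (1.07 to 1.96), and of 1.03 from 20 UMIs after thinning. Tet3 had 178 and 290 UMIs, 31.7 and 41.4 CPM, a ratio of 1.31 (1.08 to 1.58), and Xrcc1 8.0 and 11.7 CPM, 1.46 (1.00 to 2.15). Tdg itself had 119 and 145 UMIs, 21.2 and 20.7 CPM and a ratio of 0.978 (0.762 to 1.26), and Tet2 a ratio of 1.06 (0.883 to 1.27).

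Tet2 in gamma-delta T-like cells, the IL-17-type cells led by Il17a and Trdc, was the pair past 1.5-fold in the higher direction. It had 28 UMIs in 112 cells and 65 UMIs in 172 cells, 36.8 CPM (24.5 to 53.2) and 59.6 CPM (46.0 to 75.9). The ratio was 1.62 (1.02 to 2.62), where 7.97% of all genes in the class were at least 1.5-fold higher. It was 1.48 with every cell weighted equally and 1.28 from 12 UMIs after thinning, both under 1.5-fold.

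Tdg in neutrophil-like cells was the other lower pair, from 40 UMIs in 687 cells and 13 UMIs in 241 cells. The levels were 24.2 CPM (17.3 to 32.9) and 15.7 CPM (8.37 to 26.9), and the ratio of 0.651 had an interval from 0.319 to 1.24, so a difference was not detectable at this depth. In this class 6.27% of all genes were at least 1.5-fold lower. The ratio turned to 1.30 when every cell was weighted equally and was 0.451 without barcodes of 2 lineages.

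In Treg-like and CD8 T-like cells Tdg was higher in Tdg_KO, below 1.5-fold. Treg-like cells had 91 and 143 UMIs, 29.9 and 40.1 CPM, with a ratio of 1.34 (1.03 to 1.77), which was 1.82 from 48 UMIs after thinning and 1.13 when clusters of mixed barcodes were named too. CD8 T-like cells had 23.0 and 32.0 CPM and a ratio of 1.39 (0.969 to 2.03). CD4 T-like and naive T-like cells had ratios of 1.08 (0.830 to 1.41) and 0.963 (0.611 to 1.5). Of the 8 classes with enough Tdg UMIs, 3 had a ratio above 1.

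**Figure D4:**
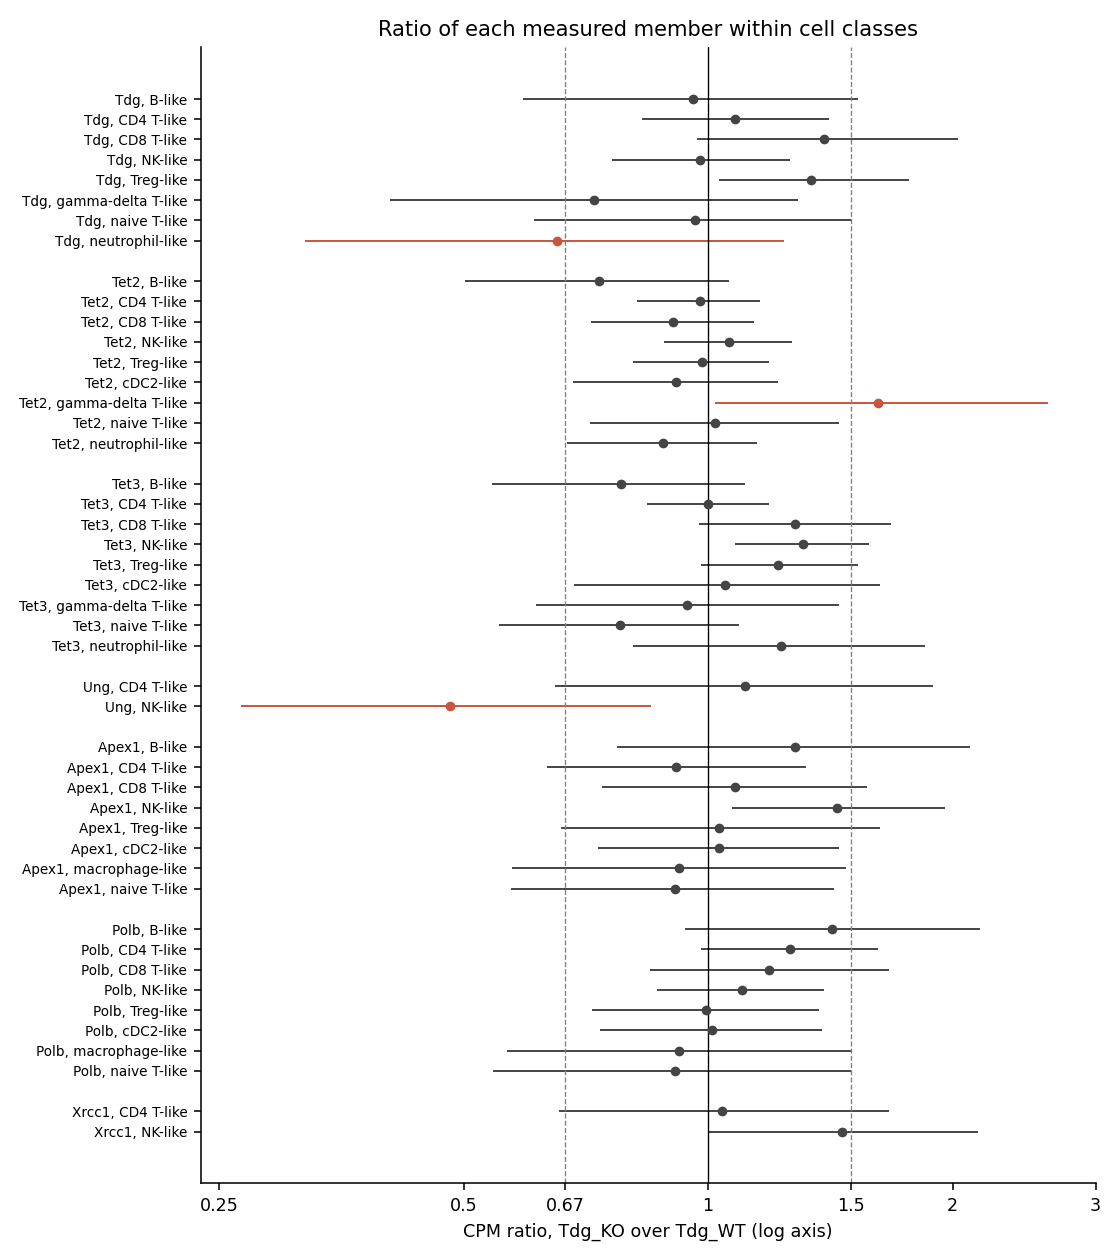
Ratio of CPM, Tdg_KO over Tdg_WT (log axis), for the 46 pairs of a member and a class with at least 50 UMIs, with exact 95% conditional Poisson intervals for counting error. Dashed lines mark 1.5-fold either way. The 3 pairs past them, in red, are Tdg in neutrophil-like, Tet2 in gamma-delta T-like and Ung in NK-like cells.

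Summed over all kept cells, 0 of the 10 members were past 1.5-fold, against 7.79% of 13009 genes. Tet3 had the highest ratio, with 40.6 and 49.2 CPM, 1.21 (1.14 to 1.29), followed by Ung with 5.90 and 6.96 CPM, 1.18 (0.998 to 1.40), and Polb with 30.3 and 34.3 CPM, 1.13 (1.05 to 1.22). Mbd4 (0.908; 0.712 to 1.16) and Smug1 (0.898; 0.716 to 1.13) were at the other end. Against the median log2 ratio of 0.10 over all genes, Tet3 (0.28), Ung (0.24), Polb (0.18) and Xrcc1 (0.13) lay above it. Tdg (0.08), Apex1 (0.06), Tet1 (0.04), Tet2 (-0.04), Mbd4 (-0.14) and Smug1 (-0.16) lay below. Class shares differed as well, with neutrophil-like cells at 12.5% of kept cells in Tdg_WT and 4.23% in Tdg_KO. Unnamed clusters held 16.8% and 26.6% of kept cells, with 11672911 of 39631850 and 22496757 of 52292979 UMIs. Markers of 2 lineages were carried by 27.4% and 37.4% of their barcodes. In these unnamed clusters the ratio was 1.35 for Tet3, 1.45 for Ung and 1.15 for Polb. The part of the neutrophil-like cells and of the unnamed clusters in the sums was not tested.

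Several members differed between cycling and other cells in the same direction in both libraries. A barcode counted as cycling with at least 3 of 14 cell cycle genes detected. Barcodes with markers of 2 lineages were left out here. So were barcodes with markers of 2 lymphocyte subsets, meaning Cd8a, Cd8b1 or Ncr1 together with Cd4 or Foxp3. Of the remaining barcodes 227 (4.70%) and 346 (7.60%) were cycling, with median depths of 10624 and 11662 UMIs against 4830 and 5416 in the others. Ung was at 17.2 CPM in cycling and 4.88 in other cells of Tdg_WT, 3.54-fold (2.47 to 4.98), and at 17.3 and 5.25 CPM in Tdg_KO, 3.29-fold (2.45 to 4.39). Apex1 was 2.73-fold (2.24 to 3.31) and 2.08-fold (1.74 to 2.49) higher, Mbd4 2.61-fold (1.51 to 4.34) and 2.70-fold (1.63 to 4.35), and Xrcc1 1.87-fold (1.30 to 2.64) and 1.64-fold (1.21 to 2.18).

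Over all these cells Tet2 and Tet3 were lower in cycling barcodes. Tet2 was at 32.7 and 56.4 CPM in cycling and other cells of Tdg_WT, a ratio of 0.579 (0.462 to 0.717), and at 33.6 and 52.1 in Tdg_KO, 0.646 (0.541 to 0.767). Tet3 had ratios of 0.769 (0.608 to 0.962) and 0.825 (0.693 to 0.976). Over all these cells the libraries did not share a direction for Tdg. It was 1.41-fold (1.12 to 1.77) higher in cycling cells of Tdg_WT, at 32.7 and 23.1 CPM, and had a ratio of 0.975 (0.783 to 1.20) in Tdg_KO, with 23.5 and 24.1 CPM. The difference between these ratios was not tested. Polb had ratios of 0.848 (0.655 to 1.08) and 0.910 (0.752 to 1.09), with intervals that held 1.

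Depth and cell class differ between cycling and other cells, so the ratios were also taken within limits. Among cells of at least 8000 UMIs, Ung was 4.99-fold and 5.03-fold, Mbd4 5.12-fold and 3.39-fold, Apex1 2.23-fold and 1.66-fold and Tdg 1.52-fold and 1.00-fold in cycling over other cells, and Tet2 had ratios of 0.641 and 0.638. Xrcc1 was 2.06-fold (1.33 to 3.15) and 1.63-fold (1.15 to 2.28). Under this limit Polb had ratios of 0.620 (0.456 to 0.829) and 0.781 (0.629 to 0.963), which left out 1, and Tet3 0.833 (0.643 to 1.07) and 0.900 (0.746 to 1.08), which did not. Within NK-, CD8 T-, CD4 T-, Treg- and gamma-delta T-like cells together, Ung was 2.31-fold and 2.28-fold, Apex1 2.39-fold and 2.17-fold and Tdg 1.56-fold and 1.16-fold, with Tet2 at 0.624 and 0.672. There the intervals of Xrcc1 (1.40; 0.677 to 2.63, and 1.5; 0.896 to 2.39) and Tet3 (0.931; 0.672 to 1.26, and 0.855; 0.653 to 1.10) held 1 in both libraries. That of Mbd4 held 1 in Tdg_WT (2.59; 0.966 to 5.98) and left it out in Tdg_KO (2.83; 1.18 to 6.15). In NK-like cells alone Tet3 was at 1.13 (0.571 to 2.03) and 1.03 (0.655 to 1.56). Apex1 was at 3.09 and 2.21 in these cells, with intervals that left out 1. Those of Ung (2.47 and 1.58), Xrcc1 (2.45 and 1.02) and Tet2 (0.678 and 0.667) held 1 in both libraries. Mbd4 was at 4.77 and 1.18, and its interval left out 1 in Tdg_WT only. There Tdg was above 1 in both libraries, at 1.66 (0.800 to 3.10) and 1.82 (1.07 to 2.96). In CD8 T-like cells alone Tdg was at 1.84 (0.885 to 3.68) and 0.822 (0.419 to 1.52). Apex1 (1.88 and 1.22) and Tet2 (0.616 and 0.653) had intervals that held 1 in both libraries of this class. Those of Ung (2.47 and 6.77), Mbd4 (0.822 and 9.87), Xrcc1 (0.822 and 2.82) and Tet3 (0.548 and 0.590) left out 1 in Tdg_KO only. The libraries thus did not share a direction for Mbd4 and Xrcc1 in CD8 T-like cells. An unnamed cluster led by proliferation genes such as Pclaf and Birc5 was nearest by markers to macrophages and then to cDC1. It had Apex1 at 96.5 and 57.2 CPM and Ung at 22.0 and 22.1 CPM. Macrophage-like cells had 40.1 and 37.0 CPM of Apex1 and 5.14 and 6.82 of Ung. For cDC1-like cells these were 65.9 and 46.6 CPM and 23.7 and 5.33.

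**Figure D5:**
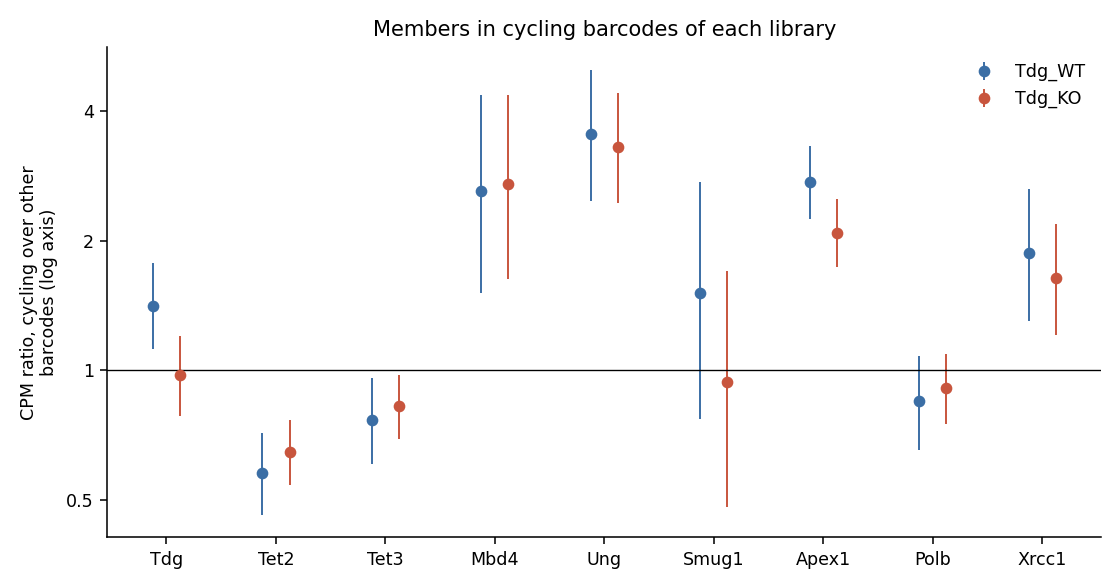
Ratio of CPM in cycling over other barcodes (log axis) for 9 members in each library, with exact 95% conditional Poisson intervals. Tet1 is left out for its low counts. Ung, Apex1, Mbd4 and Xrcc1 lie above 1 and Tet2 and Tet3 below 1 in both libraries, while Tdg lies above 1 in Tdg_WT (1.41) and near 1 in Tdg_KO (0.975).

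The genes whose levels ran most closely with Tdg over the 20 class and library points of the 10 compared classes were Gm16286 (Pearson r of 0.89 on log2(CPM + 10)), Mier1 (0.88), Prrc2c (0.87), Elf1 (0.87) and Sec62 (0.86). They were the 5 highest of 2302 genes with enough UMIs in every class. Such a likeness was common, since 239 genes (10.4%) had r of at least 0.7, and points of 1 library share its depth and cells of 1 class its total RNA. Tdg itself had under 50 UMIs in the cDC2-like and macrophage-like classes. No other member reached 50 UMIs in every class, so none was searched in this way.

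Other genes of the pathway were compared between the libraries over all kept cells by list. Of 7 other DNA glycosylases 0 were past 1.5-fold, including Mpg (15 and 15.6 CPM), which removes alkylated purines, and Neil1 (12.3 and 14.1 CPM), which removes oxidised bases. Of 23 later repair genes 0 were past it, with a median log2 ratio of 0.19. They include Hmgb1 (709 and 705 CPM), a DNA-bending chromatin protein, and Pcna (108 and 127 CPM), the sliding clamp of replication and repair.

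Of 13 measured writers and readers of methylation, 0 were past 1.5-fold, with Mbd2, a reader of methylated CpG, at 202 and 201 CPM and Uhrf2 at 101 and 115 CPM. Among 18 partners and cofactor enzymes the most abundant were Gadd45b (453 and 485 CPM), a stress gene linked to demethylation, and Sumo2 (434 and 445 CPM), whose product is attached to TDG. In the list of deaminases and nucleotide pool enzymes Samhd1 had 197 and 188 CPM and Apobec3 104 and 117 CPM. In mismatch repair, Msh3, which recognises small DNA loops, had 12.2 and 13.3 CPM.

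Within the 10 compared classes, 10.2% of 128 gene and class pairs of later repair steps were past 1.5-fold (11 higher and 2 lower), 11.5% of 78 pairs of writers and readers (8 and 1) and 7.69% of 130 pairs of partners and cofactor enzymes (4 and 6). For deaminases and pool enzymes it was 2.94% of 34 pairs (1 and 0), and for the other glycosylases 0 of 10. These shares stand beside 9.59% over all genes. Lig3, the ligase that seals the repaired strand with Xrcc1, passed 1.5-fold with an interval that left out 1 in 3 of the 4 classes where it was measured. It had 5.58 and 15.4 CPM in Treg-like cells (2.76; 1.58 to 5.08), 7.92 and 14.6 in CD4 T-like cells (1.84; 1.22 to 2.81) and 7.11 and 10.8 in NK-like cells (1.52; 1.03 to 2.29). At least 1.5-fold higher were 2.86%, 3.91% and 3.53% of all genes in these classes. Lig3 is named because it met this rule in 3 classes, so its count is the selection itself. The shares take 1 class at a time without the interval condition, and the share of all genes meeting the whole rule was not computed.

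Gadd45g, a relative of Gadd45b, was lower in Tdg_KO in 3 of its 9 measured classes by the same rule. It had 131 and 60.4 CPM in neutrophil-like cells (0.461; 0.332 to 0.630), 40.8 and 21.1 in gamma-delta T-like cells (0.517; 0.288 to 0.916) and 42.8 and 25.1 in naive T-like cells (0.585; 0.384 to 0.874). At least 1.5-fold lower were 6.27%, 2.94% and 3.80% of all genes there, with the same limits as for Lig3. Gadd45g too is named because it met the rule. In cDC2-like cells Gadd45g had 83.7 and 84.1 CPM.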

How the data were processed

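The files hold raw UMI counts of 10x 3′ libraries as deposited, made with Cell Ranger 6.0.1 per the file headers. Cell Ranger, Seurat and mm10 appear in the submitters' processing notes. Annotation and strand use in counting were not given in the sources used here. Entries with the same symbol were added up (32245 symbols). The filter kept cells with 200 genes or more and mitochondrial UMIs of 10% or less. Cells of both libraries were clustered with scanpy 1.11.5 and leidenalg 0.10.2 (Python 3.11.15; 2000 variable genes without the members, 30 components, 15 neighbours, resolution 1), lymphoid and phagocyte clusters a second time, and named from marker lists. Clusters stayed unnamed where no own marker was among the 10 leading genes, where 3 or more of these were proliferation or interferon genes, where 50% of barcodes or more held T cell with phagocyte or B cell genes, or where 25% or more mixed lymphocyte subsets. These limits were set after seeing the data. No doublet caller was run. Barcodes with 3 markers or more of each of 2 lineages were left out in an alternative. They were also left out of the comparison of cycling cells, together with barcodes that mixed lymphocyte subsets. CPM, computed here, is the sum of a gene's UMIs over the UMIs of the class. Exact Poisson and Clopper-Pearson intervals came from scipy 1.17.1, and the code was tested on simulated data. Other cell filters, depths, weights, scalings and clusterings were tried as alternatives.

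Members and lists were chosen with earlier results of these data known. Named genes are the members, the 2 genes with most UMIs in each pathway list, list genes past 1.5-fold with an interval off 1 in 3 classes or more in 1 direction, and the 5 genes most like Tdg. Results for 2 of the listed genes are not reported here.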

Additional observations from a re-analysis of the deposited data

How the results depend on the processing

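The Tdg ratio over all kept cells lay between 0.987 (median-of-ratios scaling) and 1.11 (cells thinned to 1000 UMIs) under 8 alternatives. The count of member and class pairs past 1.5-fold was 3 of 46. It was 0 of 8 after thinning, 5 of 46 (10.9%) with every cell weighted equally, 5 of 53 (9.43%) with mixed clusters named, 7 of 66 (10.6%) with at least 20 UMIs and 0 of 29 with at least 100 UMIs. The thinned and the 100-UMI settings leave fewer pairs by construction. It was 2 to 4 under the other 6 settings. Of 414 recomputed pair ratios, 395 stayed within the interval of the main ratio, 17 left it and 2 were counted as changing side of 1. A change of side was counted only for the 3 pairs past 1.5-fold, and not for the other pairs. The 2 counted were Ung in NK-like cells, at 1.27 after thinning from 5 UMIs, and Tdg in neutrophil-like cells, at 1.30 with cells weighted equally. The cause of these 2 changes was not tested.

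No paired analysis was possible because each group is 1 library, and leaving out a replicate was not possible for the same reason. The intervals do not cover the spread between animals or libraries. Class names rest on marker genes.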
